A study of Mus musculus with 6 samples.

Results

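7 non-coding transcripts were followed across control and Dhps-deficient mouse macrophages: Malat1 and Neat1, which stay in the nucleus, and the snoRNA host transcripts Gas5, Snhg1, Snhg6, Snhg8 and Snhg12. They were taken by name from a deposited count table of 10551 genes, and all 7 had a row. The 7 were selected on their names with the counts of the same comparison, knockout against control, already known, so their differences between the groups are given as a description. The 3 knockout libraries came from bone marrow-derived macrophages of C57BL/6J mice with a macrophage-specific loss of Dhps, which the labels write Dhps_delta_Myel. The 3 control libraries came from the same cell type and strain and are labelled control. Dhps encodes deoxyhypusine synthase, the enzyme of the first step in making hypusine, a modified amino acid of the translation factor eIF5A. The labels name no stimulus, no age, no Cre driver and no floxed allele for either group. Nor do they state that each library was grown from its own animal or culture, so the errors below measure the spread between these libraries, which may be technical. The molecule was total RNA, and the way the RNA was selected for the libraries is not given in the sources used here.

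Malat1 is an abundant long non-coding RNA of nuclear speckles, the compartments where splicing factors collect. Neat1 is the architectural RNA of paraspeckles, nuclear bodies that assemble around its long form and hold RNA-binding proteins. Malat1 and the long form of Neat1 end in a triple helix where other RNAs carry a poly(A) tail, and the pair are neighbours in the genome. The snoRNA hosts work differently: their introns carry small nucleolar RNAs, which guide the chemical modification of ribosomal RNA, while the spliced host is exported, usually begins with a tract of pyrimidines typical of ribosomal protein genes, and is often removed by nonsense-mediated decay. Gas5 took its name from its accumulation in growth-arrested cells.

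Dhps itself was at 13.2, 13.6 and 18.3 normalized CPM (CPM, the count as a share of all counts of the library in parts per 1000000, after scaling) in knockout libraries 1, 2 and 3, against 24.1, 20.9 and 23.4 CPM in control libraries 1, 2 and 3. The groups did not overlap, yet the difference did not pass the test over the whole table (log2 fold change -0.59, adjusted p = 0.214, edgeR quasi-likelihood test with Benjamini-Hochberg adjustment). Total counts lay between 12960793 and 16224818 in knockout libraries and between 11648710 and 15382816 in control libraries. All 10 macrophage markers looked for were measured. Their summed level was 14333 to 16712 CPM in knockout libraries and 23347 to 26021 CPM in control libraries. Without Lyz2, the lysozyme gene that gave most of that gap, the other 9 summed to 6272 to 7250 CPM in knockout libraries and 6726 to 7251 CPM in control libraries.

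The 2 nuclear transcripts are shown by the 3′ end that protects them in place of a poly(A) tail, from GENCODE M21 on GRCm38, the assembly that is also called mm10. Capitals mark the U-rich stretches (written as T) and the closing A-rich stretch, the 3 strands of the triple helix.
Malat1 (chr19:5795982-5796091, minus strand): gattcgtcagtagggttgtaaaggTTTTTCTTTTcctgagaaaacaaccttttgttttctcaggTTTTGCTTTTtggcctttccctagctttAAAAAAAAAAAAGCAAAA
Neat1 (chr19:5824708-5824817, minus strand): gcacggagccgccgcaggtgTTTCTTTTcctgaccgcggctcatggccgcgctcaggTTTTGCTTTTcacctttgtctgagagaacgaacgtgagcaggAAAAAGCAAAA
Both transcripts hold the stretch TTTTGCTTTT and close on GCAAAA. In Neat1 these bases are the last of the annotated transcript, whereas in Malat1 another 292 bases follow them in the annotation. Malat1 was counted over 1 exon of 6982 bases (chr19:5795690-5802671, ENSMUSG00000092341), and Neat1 over 1 exon of 20771 bases (chr19:5824710-5845480, ENSMUSG00000092274), both on the minus strand. The gap between them measured 22038 bases. 453 of the counted bases of Malat1 lie opposite exons of Gm37376. Whether strand was used in counting is not given, so reads of the pair cannot be told apart there. The single exon of Neat1 covers its short and long forms together, and the counts do not separate them.

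The hosts are shown by their start sites, where the pyrimidine tract lies. The sequences are RefSeq windows (GRCm38.p6), each running from 40 bases before the start through the first 20 transcribed bases, and capitals mark the unbroken run of C and T that includes the start. Malat1 is set below them for comparison.
Gas5 (chr1:161035126-161035185, plus strand): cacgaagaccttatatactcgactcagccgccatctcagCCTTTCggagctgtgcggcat
Snhg1 (chr19:8723447-8723506, plus strand): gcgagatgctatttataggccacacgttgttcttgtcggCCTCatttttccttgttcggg
Snhg8 (chr3:123508317-123508376, minus strand): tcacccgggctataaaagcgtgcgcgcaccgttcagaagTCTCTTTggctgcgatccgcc
Snhg12 (chr4:132308638-132308697, plus strand): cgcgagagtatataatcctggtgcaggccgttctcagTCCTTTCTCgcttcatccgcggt
Malat1 (chr19:5802653-5802712, minus strand): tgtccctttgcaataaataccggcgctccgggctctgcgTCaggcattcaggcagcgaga
The run measured 6 bases in Gas5, 4 in Snhg1, 7 in Snhg8 and 9 in Snhg12, against 2 in Malat1. A run of at least 4 bases was present in 14% of all 32851 RefSeq start windows and in 12.1% of the 10331 windows that belong to genes of the table. The letters TATA, which read the same on both strands, occurred between 40 and 20 bases before the start in all 4 hosts shown and not in Malat1. They occurred in 5.34% of all windows and in 2.69% of the windows of genes of the table. Run and TATA occurred together in 0.706% of all windows and in 0.445% of those of genes of the table. For Gas5 RefSeq also gives a start 565 bases upstream, with a run of 0 bases. These matches describe the letters and say nothing of the factors that read them.

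The counted models of the hosts differed in how they treat the snoRNAs. Gas5 (chr1:161035166-161038537, plus strand, ENSMUSG00000053332) was counted over 4 exons of 2554 bases in all, and of 9 snoRNA genes annotated in it 6 fell inside the long first counted exon. These 6 made up 17.0% of its counted bases. Among them is Mir5117 (84 bases), named as a microRNA but typed as a snoRNA gene in GENCODE M21. Snhg8 (chr3:123507552-123508336, minus strand) was 1 exon of 785 bases, 130 of which are Snora24, or 16.6%. The exons of Snhg1 (chr19:8723487-8726326, plus strand, 10 exons, 476 bases), Snhg6 (chr1:9942025-9944118, minus strand, 4 exons, 407 bases) and Snhg12 (chr4:132308678-132311024, plus strand, 5 exons, 606 bases) held no snoRNA bases, with 8, 1 and 4 intronic snoRNA genes in that order. 61 of the bases of Snhg6 lie opposite exons of Mcmdc2. The counts of Gas5 and Snhg8 can therefore include snoRNA reads, and those of the other 3 hosts come from exons without snoRNA bases. Exon counts do not separate spliced from unspliced host RNA.

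**Figure D1:**
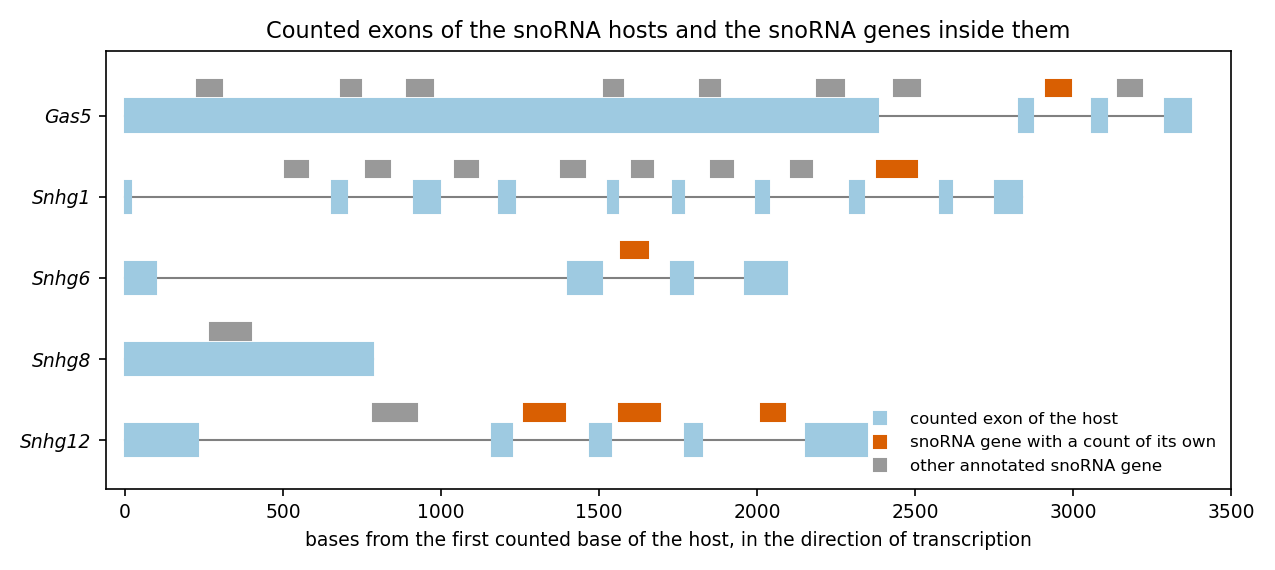
Counted exons of the 5 snoRNA hosts (pale boxes, joined by a line for introns), drawn from the first counted base in the direction of transcription, with annotated snoRNA genes above them. Orange boxes are the 6 snoRNA genes with a count of their own, all in introns; in Gas5 and Snhg8 grey boxes stand over counted exons.

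Malat1 had the highest level of the 7 and stood higher in every knockout library than in any control library. It was at 776, 1124 and 979 normalized CPM in knockout libraries 1, 2 and 3, against 661, 592 and 745 CPM in control libraries 1, 2 and 3. The lowest knockout library lay just above the highest control library, and knockout library 2 was the highest of all. Group means were 960 ± 175 CPM in knockout and 666 ± 76.8 CPM in control libraries (SD, n = 3 each). The log2 fold change was 0.53 (SE 0.12, 95% interval 0.27 to 0.78), a 1.44-fold higher mean level. Over the whole table this did not pass the threshold (edgeR quasi-likelihood test, adjusted p = 0.186). It stood at rank 24 of 10551 genes by p. With 8572 to 15965 counts behind each value, counting error was small next to the spread between libraries. The call depended on the tool: Malat1 was called by DESeq2 (log2 fold change 0.53, adjusted p = 0.0166), and by edgeR once knockout library 1 was left out (log2 fold change 0.66, adjusted p = 0.0128). Without knockout library 2 the log2 fold change was 0.40 (edgeR adjusted p = 0.671).

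Neat1 showed the same order of the groups at a much lower level. It was at 49.2, 53.8 and 45 normalized CPM in knockout libraries 1, 2 and 3, against 41.1, 38.5 and 36.6 CPM in control libraries 1, 2 and 3. Every knockout library was again above every control library, and the means were 49.3 ± 4.39 CPM in knockout and 38.7 ± 2.27 CPM in control libraries (SD, n = 3 each). The log2 fold change was 0.35 (SE 0.10, 95% interval 0.13 to 0.56), or 1.27-fold (edgeR adjusted p = 0.414). Leaving out 1 library at a time gave values between 0.28 and 0.41. Very long exons were compared separately: the 1236 genes with 5000 to 7000 counted bases, the range of Malat1, had a median log2 fold change of 0.02, and the 6 genes with 20000 bases or more, among them Neat1, had a median of -0.0037. In these 2 sets 7.12% and 33.3% of genes in that order had every knockout library above every control library, against 5.73% of all genes. The 33.3% is a share of only 6 genes and counts Neat1 itself and Kcnq1ot1. With a trend in exon length removed, a step chosen after seeing the data, the log2 fold change was 0.49 for Malat1 and 0.24 for Neat1. Neat1, among the 6 longest, itself helps to set that trend.

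Gas5, the most strongly counted of the hosts, was at 22.6, 31.9 and 24 normalized CPM in knockout libraries 1, 2 and 3, against 19.7, 21.1 and 22.7 CPM in control libraries 1, 2 and 3. The groups touched, since knockout library 1 was just under control library 3, and knockout library 2 stood apart above all others. The means were 26.2 ± 5.02 CPM in knockout and 21.2 ± 1.5 CPM in control libraries (SD, n = 3 each), with a log2 fold change of 0.30 (95% interval 0.02 to 0.59, edgeR adjusted p = 0.749). Without knockout library 2 it was 0.14.

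Snhg1, whose introns carry a run of box C/D snoRNAs, gave 7.02, 6.59 and 7.91 normalized CPM in knockout libraries 1, 2 and 3, against 6.21, 6.56 and 7.57 CPM in control libraries 1, 2 and 3. The ranges lay almost on top of each other. The log2 fold change was 0.09 (95% interval -0.29 to 0.46, edgeR adjusted p = 0.978). Snhg6, the host of Snord87, gave 8.18, 5.81 and 7.42 CPM in knockout libraries 1, 2 and 3, against 7.78, 7.65 and 5.57 CPM in control libraries 1, 2 and 3. Here the lowest library was a control and the next lowest a knockout library. Its log2 fold change of 0.02 (95% interval -0.39 to 0.44, edgeR adjusted p = 0.993) had either sign when libraries were left out in turn, between -0.11 and 0.15.

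The last 2 hosts were counted only thinly. Snhg8, which hosts Snora24, had 2.20, 2.09 and 2.15 normalized CPM in knockout libraries 1, 2 and 3, against 3.21, 2.38 and 1.91 CPM in control libraries 1, 2 and 3. The 3 knockout values fell within the spread of the controls, and the log2 fold change was -0.23 (95% interval -0.84 to 0.39, edgeR adjusted p = 0.95). It was -0.01 without control library 1 and -0.38 without control library 3. Snhg12, which hosts 4 snoRNAs, had 1.17, 2.09 and 4.48 CPM in knockout libraries 1, 2 and 3, against 1.29, 0.90 and 1.13 CPM in control libraries 1, 2 and 3. Knockout library 3 alone, with 73 reads (exact Poisson 95% interval 3.51 to 5.63 CPM, counting error only), lay far above the rest, and knockout library 1 was inside the control range. Snhg12 therefore had the largest log2 fold change of the 7 and the widest interval: 1.24 (95% interval 0.33 to 2.16, edgeR adjusted p = 0.588). Without knockout library 3 it was 0.56 (edgeR adjusted p = 0.904).

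**Figure D2:**
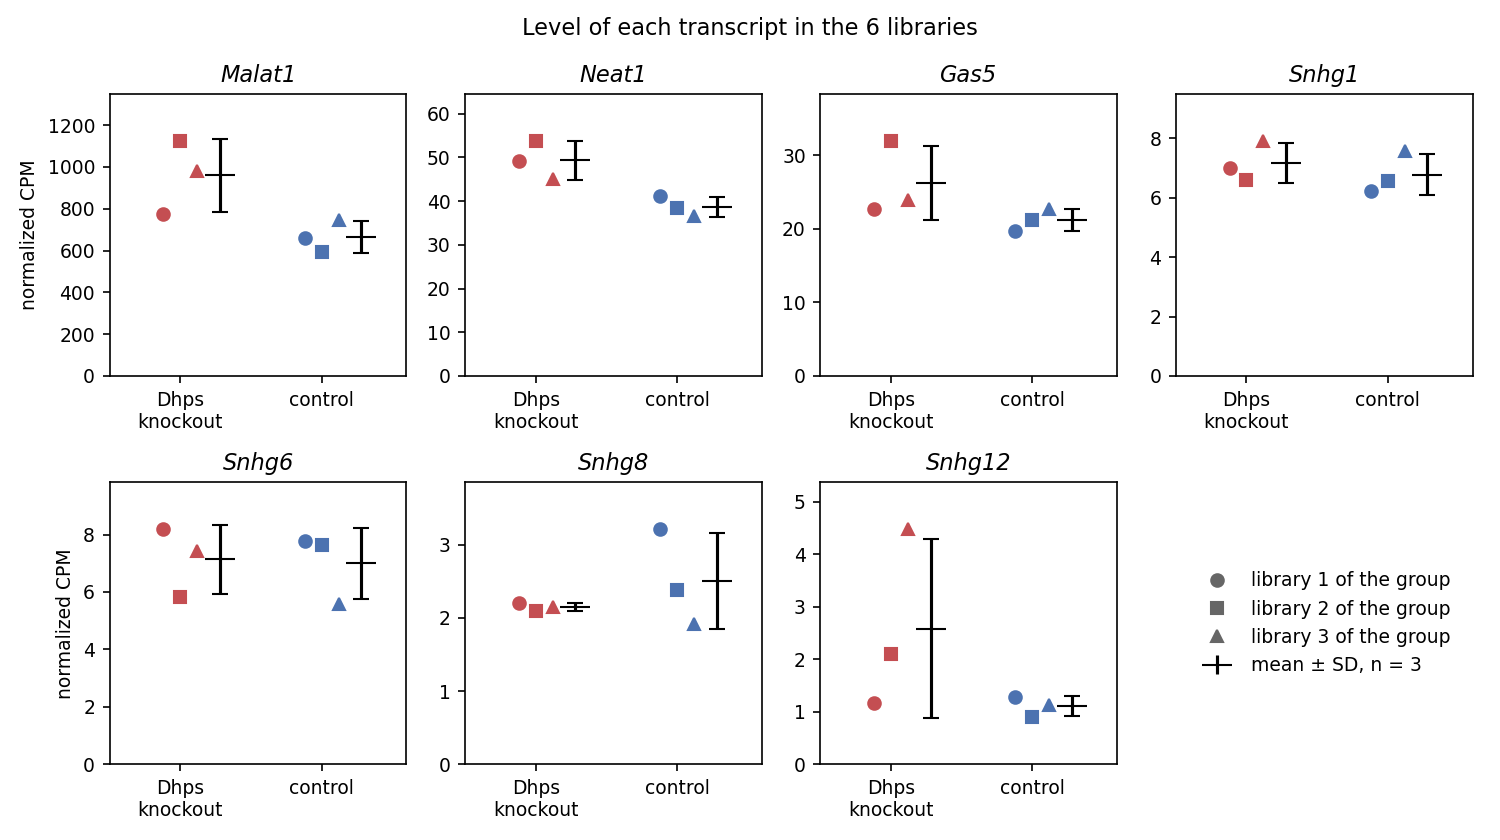
Normalized CPM of the 7 transcripts in each library, with the Dhps knockout on the left and the control on the right of each panel; symbols give the library number, bars the mean ± SD (n = 3), and each vertical axis starts at 0. The groups are separate for Malat1 and Neat1, and the high knockout mean of Snhg12 rests on library 3.

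Read together, 0 of the 7 were called by edgeR at an adjusted p under 0.05, against 0.104% of all genes. DESeq2 called 1 of the 7, Malat1 (0.209% of all genes), limma-voom called 0 (0.0758% of all genes), and 4 of the 7 had an unadjusted edgeR p under 0.05 (6.48% of all genes). 2 of the 7 had every knockout library above every control library, as had 5.73% of all genes. 6 of the 7 log2 fold changes were above 0, against 48.7% of all genes. Their median was 0.30, against -0.0044 over all genes. Because the 7 were chosen with this contrast known, these counts describe them and are no evidence of their own.

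**Figure D3:**
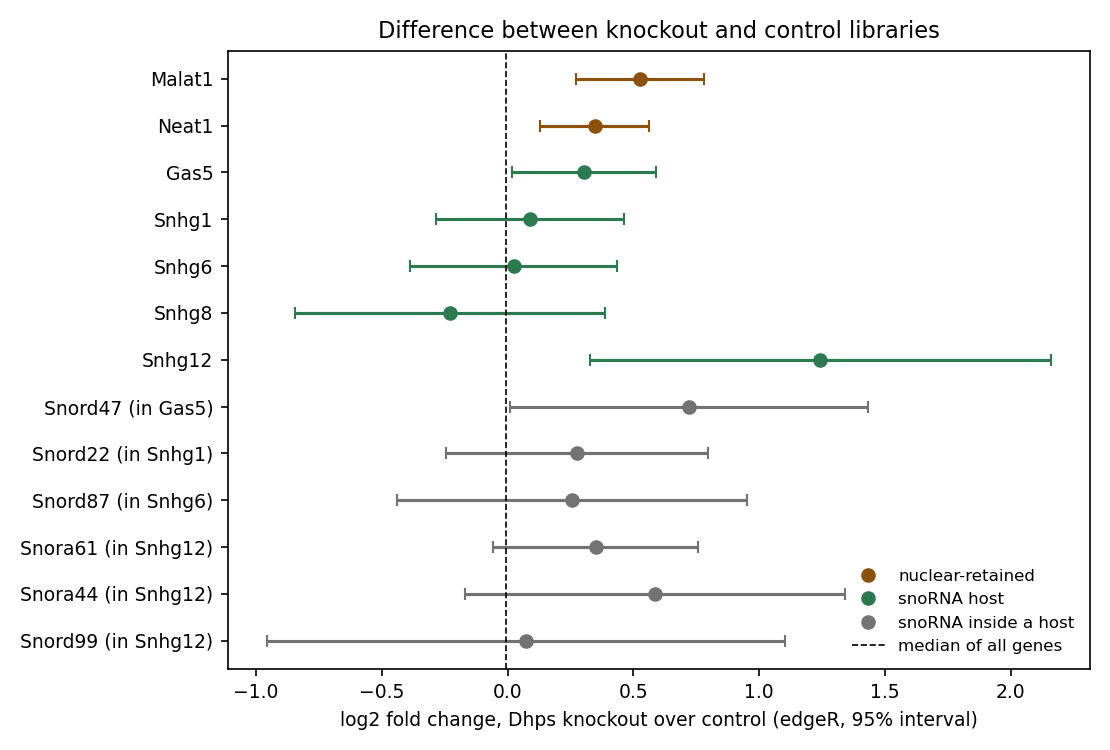
Log2 fold change of Dhps knockout over control with its 95% interval (edgeR) for the 2 nuclear-retained RNAs, the 5 snoRNA hosts and the 6 snoRNA rows inside hosts; the dashed line is the median of all genes. The intervals of Malat1 and Neat1 are narrow and lie above 0. Those of Snhg12, Gas5 and Snord47 lie above 0 too, for the last 2 from only 0.02 and 0.01. The intervals of the thinly counted Snhg8 and Snhg12, and of every snoRNA row except Snora61, span more than 1 log2 unit.

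Markers of other marrow cells were summed in each library. Of 12 markers of neutrophils and their precursors 11 were measured, and they summed to 711 to 889 CPM in knockout libraries and 407 to 513 CPM in control libraries, with 5 called higher, as were 0.0948% of all genes. Of 8 stromal markers 4 were measured, at 15.7 to 20.5 CPM in knockout and 7.97 to 9.07 CPM in control libraries. Of these, 3 were called higher by edgeR, 3 were called by DESeq2 and 0 by limma-voom. Mast cell and basophil markers (3 of 5 measured) summed to 3.78 to 6.38 CPM in knockout and 1.57 to 2.78 CPM in control libraries, and megakaryocyte and platelet markers (5 of 6 measured) to 97.1 to 118 CPM in knockout and 94.6 to 106 CPM in control libraries. Of these last 2 lists edgeR, DESeq2 and limma-voom called 0 genes, against 0.104%, 0.209% and 0.0758% of all genes in that order. Yet 2 mast cell and 4 megakaryocyte markers had an unadjusted edgeR p under 0.05, as had 6.48% of all genes. The megakaryocyte sums overlapped between the groups. None of 6 T, B and NK cell markers was measured. Some stromal and mast cell markers were under 1 CPM in every control library and above 1 CPM in every knockout library. Such genes could pass the floor of the table only through the knockout group. The sums of measured markers on these lists therefore lean towards that group and are no separate support. The part of these cells in the levels of Malat1, Neat1 and the hosts was not tested. In bulk RNA, more cells of a type and more RNA per cell cannot be told apart.

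Per kb of counted exon, Malat1 exceeded the other 6 in both groups, at 137 ± 25.1 CPM per kb in knockout and 95.4 ± 11.0 CPM per kb in control libraries (SD, n = 3 each). Snhg6 came next, at 17.5 ± 2.98 CPM per kb in knockout and 17.2 ± 3.06 CPM per kb in control libraries, and Snhg1 was at 15.1 ± 1.42 CPM per kb in knockout and 14.2 ± 1.48 CPM per kb in control libraries. The ranges of these neighbours overlapped in both groups. Gas5 followed without overlap, at 10.2 ± 1.97 CPM per kb in knockout and 8.29 ± 0.586 CPM per kb in control libraries. So Snhg6 and Snhg1, with short counted exons, were above Gas5 per kb although Gas5 had more counts. The counted exons of Gas5 and Snhg8 include bases of snoRNA genes, and those of Snhg1, Snhg6 and Snhg12 do not. The order per kb therefore compares unlike gene models. At the low end the order differed between the groups. In knockout libraries it ran Snhg12 (4.26 ± 2.82 CPM per kb), Snhg8 (2.73 ± 0.0693) and Neat1 (2.37 ± 0.211), where Snhg12 overlapped both others. In control libraries it ran Snhg8 (3.19 ± 0.839 CPM per kb), Neat1 (1.87 ± 0.109) and Snhg12 (1.82 ± 0.320), where the last 2 overlapped. The value of Neat1 is an average over an exon that its short form does not fill.

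The nuclear-retained RNAs were set against the hosts within each library. The mean log2 CPM of Malat1 and Neat1 was 7.61, 7.94 and 7.72 in knockout libraries 1, 2 and 3, against 7.37, 7.24 and 7.37 in control libraries 1, 2 and 3, without overlap. The mean log2 CPM of the 5 hosts was 2.4, 2.53 and 2.78 in knockout libraries 1, 2 and 3, against 2.44, 2.30 and 2.27 in control libraries 1, 2 and 3, with overlap. The mean differences were 0.43 for the nuclear RNAs and 0.23 for the hosts. The nuclear mean minus the host mean was 5.21, 5.41 and 4.93 log2 units in knockout libraries 1, 2 and 3, against 4.92, 4.94 and 5.10 in control libraries 1, 2 and 3. Knockout library 3, with the highest host mean and the highest Snhg12, lay among the control libraries here. The knockout mean of 5.18 ± 0.24 and the control mean of 4.99 ± 0.10 (SD, n = 3 each) differed by 0.20, less than the SD of the knockout libraries. Single libraries decide this comparison: the difference was 0.32 without knockout library 3 and 0.08 without knockout library 2. For the best counted pair, log2 Malat1 minus log2 Gas5 was 5.09 to 5.34 in knockout and 4.80 to 5.06 in control libraries, which is a narrow separation of 2 transcripts chosen here with their values known.

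**Figure D4:**
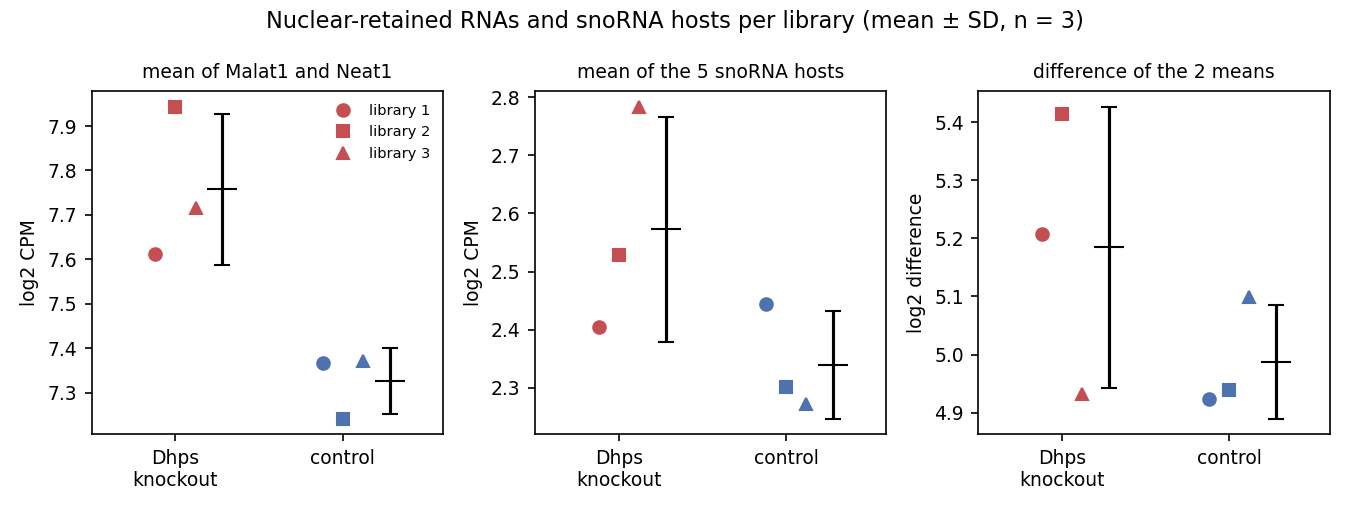
Mean log2 CPM of Malat1 and Neat1 (left), mean log2 CPM of the 5 hosts (middle) and their difference (right) in each library, Dhps knockout left of control, with mean ± SD (n = 3); the axes do not start at 0. The groups are apart in the left panel and overlap in the other 2.

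The snoRNAs inside the hosts have counts apart from those of the hosts, and were added after seeing the data. 6 of them had a row of their own, each in an intron and with 0 bases shared with counted exons. 3 are shown to make clear what was counted, from GENCODE M21 on GRCm38, with capitals on box C (TGATGA) and box D (CTGA) of the C/D snoRNAs and on the ACA box of the H/ACA snoRNA.
Snord47 in Gas5 (chr1:161038082-161038158, plus strand): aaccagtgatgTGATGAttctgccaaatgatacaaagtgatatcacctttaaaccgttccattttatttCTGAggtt
Snord22 in Snhg1 (chr19:8725866-8725991, plus strand): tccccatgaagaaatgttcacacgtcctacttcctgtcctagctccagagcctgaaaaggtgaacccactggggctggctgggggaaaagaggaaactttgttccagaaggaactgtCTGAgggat
Snora61 in Snhg12 (chr4:132310240-132310369, plus strand): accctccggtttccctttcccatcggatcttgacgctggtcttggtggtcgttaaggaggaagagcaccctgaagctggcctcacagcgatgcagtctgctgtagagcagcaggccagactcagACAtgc
The letters TGATGA were not found in the opening part of Snord22, so only box D is marked there. The counted rows of Snord47 and Snora61 were shorter than these genes, at 65 and 62 bases. Reads in intronic rows can also come from unspliced host RNA, which the counts do not separate from the snoRNA.

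Snord47, which guides methylation of 28S ribosomal RNA, was at 4.47, 6.43 and 3.37 normalized CPM in knockout libraries 1, 2 and 3, against 1.5, 2.64 and 4.61 CPM in control libraries 1, 2 and 3. The highest control library exceeded 2 of the knockout libraries, and the log2 fold change of 0.72 (95% interval 0.01 to 1.43) did not pass (edgeR adjusted p = 0.749). Snord22 was the most strongly counted of the 6, at 148, 90.6 and 134 CPM in knockout libraries 1, 2 and 3, against 157, 56.1 and 95.4 CPM in control libraries 1, 2 and 3. Its control libraries held both the lowest and the highest value of all 6, and the log2 fold change was 0.28 (95% interval -0.24 to 0.80, edgeR adjusted p = 0.911). Snora61 was at 10.8, 19.4 and 16.6 CPM in knockout libraries 1, 2 and 3, against 11.1, 10.6 and 15.1 CPM in control libraries 1, 2 and 3, with a log2 fold change of 0.35 (95% interval -0.06 to 0.76, edgeR adjusted p = 0.837). Knockout library 3, where the host Snhg12 was highest, was not the highest for Snora61.

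The remaining 3 were near the floor of the table. Snora44 had a log2 fold change of 0.59 (edgeR adjusted p = 0.861), Snord87 of 0.26 (edgeR adjusted p = 0.95) and Snord99 of 0.07 (edgeR adjusted p = 0.992). 0 of the 6 were called by edgeR, DESeq2 or limma-voom, against 0.104%, 0.209% and 0.0758% of all genes in that order. 1 of the 6 had an unadjusted edgeR p under 0.05, against 6.48% of all genes. None had groups apart, against 5.73% of all genes with knockout higher and 5.45% with knockout lower. All 6 log2 fold changes were above 0, against 48.7% of all genes, with a median of 0.31. Leaving out 1 library at a time gave -0.02 to 0.72 for Snord22, -0.39 to 1.02 for Snord99 and 0.41 to 1.18 for Snord47. The sign turned without control library 2 for Snord22 and Snord99, and without control library 1 for Snord99. Relative to its host, log2 snoRNA minus log2 host averaged -2.46 in knockout and -2.93 in control libraries for Snord47, and 4.06 in knockout and 3.78 in control libraries for Snord22. For the Snhg12 snoRNAs the order was the other way round: 2.68 in knockout and 3.31 in control libraries for Snora61, -0.15 in knockout and 0.31 in control libraries for Snora44, and -0.52 in knockout and 0.09 in control libraries for Snord99. In each of those 3 the lowest value was that of knockout library 3, which holds the high Snhg12 count.

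**Figure D5:**
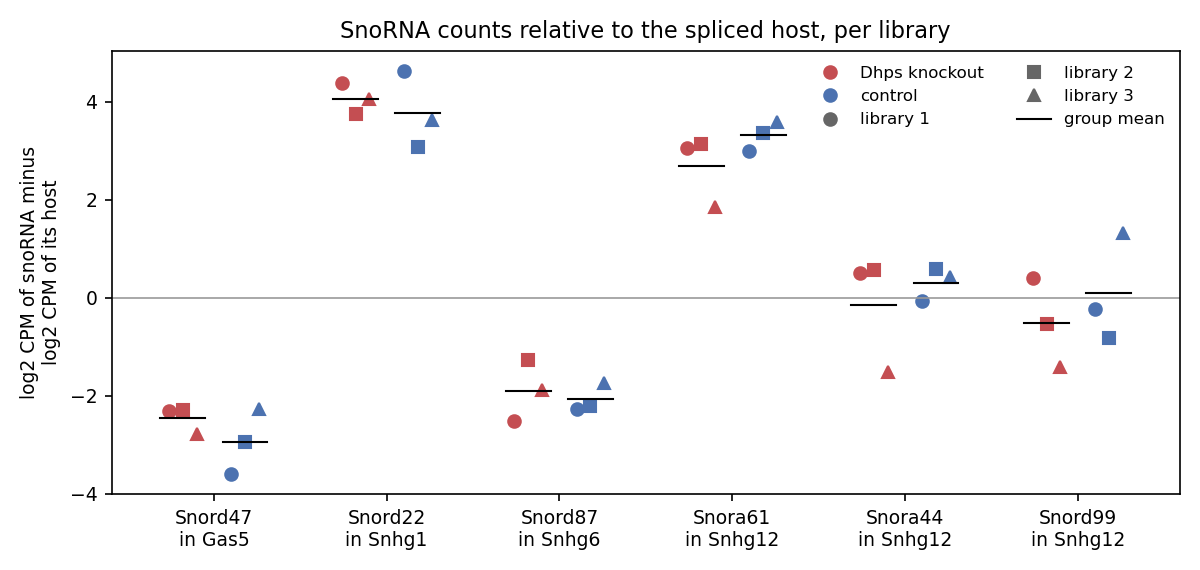
Log2 CPM of each intronic snoRNA minus log2 CPM of its host in each library, Dhps knockout left of control; symbols give the library number and the line the group mean. The groups overlap for all 6, and knockout library 3 is the lowest point for the 3 snoRNAs of Snhg12. Neither the host counts nor the snoRNA counts separate out unspliced host RNA.

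Over all 63 snoRNA and scaRNA rows of the table, 42 log2 fold changes were above 0, or 66.7%, against 48.7% of all genes, and the median was 0.26. By edgeR, DESeq2 and limma-voom 0 of the 63 were called, against 0.104%, 0.209% and 0.0758% of all genes in that order. An unadjusted edgeR p under 0.05 was found for 5, which is 7.94% of them and close to the 6.48% of all genes. The summed level was 564, 669 and 596 CPM in knockout libraries 1, 2 and 3, against 640, 350.0 and 625 CPM in control libraries 1, 2 and 3, so control library 2 was low and the other 5 libraries lay between 564 and 669 CPM. The median depended on single libraries: leaving out knockout library 2 or control library 2 gave 0.06 each, and leaving out control library 3 gave 0.39. With the trend in exon length removed, which these shortest rows themselves help to set, the median was 0.03 and 35 of the 63 were above 0.

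Knockout library 2 gave the highest value of all 6 libraries for Malat1, Neat1 and Gas5 and for 4 of the 6 intronic snoRNAs (Snord47, Snord87, Snora61 and Snora44). It was the highest library for 15.3% of all genes and for 26 of the 63 snoRNA rows. For the remaining hosts other libraries were highest: knockout library 3 for Snhg1 and Snhg12, knockout library 1 for Snhg6, and control library 1 for Snhg8. What sets that library apart was not tested.

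How the 7 moved together was measured for all 21 pairs across the 6 libraries. Malat1 and Gas5 had the closest relation, with a Pearson r of 0.884 (exact permutation p = 0.0111, adjusted p = 0.233) and a Spearman rho of 0.886 (exact permutation p = 0.0333, adjusted p = 0.408). Without knockout libraries 2 and 3, the farthest from the median of Malat1, r was 0.671. After subtracting each group's mean it was 0.792. Malat1 and Neat1 gave an r of 0.759 (exact permutation p = 0.10, adjusted p = 0.308) and a rho of 0.771 (exact permutation p = 0.103), 0.465 without the same 2 libraries, and 0.128 after subtracting the group means. Over all pairs the deviations from the group means were most closely related, and inversely, for Neat1 with Snhg1 (r = -0.938), Malat1 with Snhg6 (-0.867) and Gas5 with Snhg6 (-0.864). These within-group values come from 6 libraries and were not tested. Subtracting the group means leaves fewer than 6 deviations free to vary. The inverse values named are also the most extreme of the 21 pairs, and values this large can arise by chance. 0 of the 21 pairs passed at an adjusted p under 0.05, 1 had an unadjusted exact p under 0.05, and 11 of the 21 r values were above 0. The points share libraries, depth and scaling. The r and rho over all 6 libraries also hold the difference between the groups, known when the 7 were chosen. Their p-values are therefore no evidence apart from that difference.

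The genes most like each transcript over the 6 libraries were ranked by Pearson r of log2 CPM among 6860 genes with a mean of at least 10 CPM. For Malat1 they were Cnih1 (r = 0.988), Pstpip2 (0.987) and Gpkow (0.975). For Neat1 they were Sla (0.991), Rnf128 (0.985) and Trp53bp1 (0.975). For Gas5 they were Rab6a (0.995), Layn (0.993) and Clec4a1 (0.993). Of the 6860, 58 genes exceeded 0.9 for Malat1, 54 for Neat1 and 50 for Gas5. With 6 libraries, r values this high can arise by chance among so many genes, and these were not tested. They also hold the difference between the groups.

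Genes that act with or beside the 7 were looked at in 10 lists with 189 different measured genes. By edgeR, DESeq2 and limma-voom 0 of these were called in either direction, against 0.104%, 0.209% and 0.0758% of all genes in that order. At such shares, 0 called among 189 genes says little about them. An unadjusted edgeR p under 0.05 was found for 7, which is 3.70% of them, against 6.48% of all genes. The paraspeckle proteins, which assemble on Neat1, were all 25 measured. 16 log2 fold changes were above 0 and the median was 0.07. Taf15, an RNA-binding protein, was at 10.6, 12.9 and 14.3 CPM in knockout libraries 1, 2 and 3, against 7.43, 8.10 and 10.6 CPM in control libraries 1, 2 and 3 (log2 fold change 0.54, edgeR adjusted p = 0.495). Nudt21, a subunit of the cleavage factor that sets the 3′ end of the short Neat1 form, had a log2 fold change of 0.39. Of the 24 nuclear speckle proteins, the bodies where Malat1 collects, 12 were above 0 with a median of 0.01. The splicing factor Srsf2 (0.20), the kinase Clk1 (0.22), which phosphorylates such factors, and Acin1 (-0.18) had the smallest p.

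On the host side, the proteins of the snoRNA particles had mostly log2 fold changes below 0. 18 of 19 were measured, 4 log2 fold changes were above 0, and the median was -0.17. Nhp2, a core protein of H/ACA particles, was at 22.8, 18.9 and 23.7 CPM in knockout libraries 1, 2 and 3, against 25.7, 27.1 and 25.2 CPM in control libraries 1, 2 and 3 (log2 fold change -0.25, edgeR adjusted p = 0.749). The assembly factors Pih1d1 (-0.25) and Ruvbl2 (-0.21) had the next smallest p. Every knockout library was below every control library for Nhp2 and Ruvbl2, as for 5.45% of all genes. The median was -0.13 without knockout library 1 and -0.11 without control library 1. Of 45 protein-coding snoRNA hosts 44 were measured, 12 were above 0, and the median was -0.05, with nucleolin (Ncl) at 0.22, the ribosomal scaffold gene Gnb2l1 at -0.17 and Dap3 at -0.29. Of 20 other non-coding hosts 4 were measured, with a median of 0.01. They included 2410006H16Rik (-0.45), Snhg17 (0.10) and Snhg5 (0.04).

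Nonsense-mediated decay, which removes many spliced hosts, was followed by its factors and its known targets. 21 of 22 factors were measured, 12 were above 0 and the median was 0.02, with the exon junction proteins Magohb at 0.61, Eif4a3 at -0.20 and Casc3 at 0.23. Of 21 sensitive transcripts 19 were measured, 12 were above 0 and the median was 0.03, with Hnrnpl at 0.20, the cell cycle inhibitor Cdkn1a at 0.19 and Atf4 at -0.20. The regulators of pyrimidine-tract mRNAs and of mTORC1 were all 19 measured, 13 were above 0 and the median was 0.05, with Tial1, which binds such mRNAs, at 0.36, the kinase Rps6kb1 at 0.18 and Pabpc1 at 0.13. All these medians are of log2 fold changes and stand beside -0.0044 over all genes.

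Of 29 other long non-coding RNAs 13 were measured, 7 were above 0 and the median was 0.01. The groups were apart for 3 of them, 2 higher in knockout libraries, as 5.73% of all genes were, and 1 lower. For the other 10, which include nuclear RNAs such as Airn and Tug1, they overlapped. Xist, the RNA of the inactive X chromosome, was at 47.5, 69.1 and 52.2 CPM in knockout libraries 1, 2 and 3, against 29.1, 37.5 and 45.1 CPM in control libraries 1, 2 and 3 (log2 fold change 0.60, edgeR adjusted p = 0.290). Kcnq1ot1, an imprinted antisense transcript, was at 4.40, 4.42 and 3.07 CPM in knockout libraries 1, 2 and 3, against 2.78, 2.89 and 2.61 CPM in control libraries 1, 2 and 3 (log2 fold change 0.51, edgeR adjusted p = 0.802). Firre, a chromatin-bound RNA named here after its values were seen, was at 1.65, 1.55 and 1.29 CPM in knockout libraries 1, 2 and 3, against 1.79, 1.93 and 1.65 CPM in control libraries 1, 2 and 3, with the ranges only just apart. Every knockout library was below every control library in 5.45% of all genes. The third by p was 1700020I14Rik, with a log2 fold change of 0.22. Around Malat1 and Neat1 themselves, 12 of 13 neighbouring genes were measured, 5 were above 0 and the median was -0.05. The 3 with the smallest p, Pola2 (-0.22), Slc25a45 (-0.25) and Ehbp1l1 (-0.14), had log2 fold changes below 0, whereas those of Malat1 and Neat1 were above 0.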

How the data were processed

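RNA of bone marrow-derived macrophages, 3 Dhps knockout and 3 control samples, was sequenced on an Ion Proton. The deposited table holds raw read counts per gene, whole numbers that the authors had not scaled, with exon coordinates and, as another deposited value, the summed exon length in bases. STAR 2.4.2a, featureCounts, Subread 1.5.0, edgeR and mm10 are named in the submitters' processing notes, without role or order. The annotation used and the use of strand are not given in the sources used here. In all 10551 genes the third highest library exceeded 1 CPM. Such a table looks filtered, which bears on Snhg8, Snhg12, the snoRNAs near that floor and the low stromal and mast cell markers. 17 symbols had the form of dates.

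Library sizes were scaled with TMM. Genes were tested two-sided with edgeR 4.0.16 (R 4.3.3, quasi-likelihood), genotype being the only term. With a minimum count of 10, filterByExpr took out 0 genes. P-values were adjusted by Benjamini-Hochberg over all genes and called under 0.05. An SE is |log2 fold change| over the root of its F statistic. Log2 CPM used a prior count of 2, and levels per kb used the deposited length. Pair correlations have exact permutation p-values, two-sided. Depth was 11648710 to 16224818 counts per library, and Poisson intervals cover counting error only. The biological coefficient of variation was 10.7%.

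The members and lists were chosen with earlier results of these data known. Named were the 7 transcripts, from each list up to 3 genes with the smallest p, and for Malat1, Neat1 and Gas5 the 3 genes with the highest r. A gene that this rule takes is not reported here. The hosts' snoRNAs and Lyz2 were added after seeing the data. Sequences came from RefSeq (GRCm38.p6) and GENCODE M21. Neat1 and Snhg6 had no start window in the RefSeq table, and 5 of the 7 transcripts matched. Alternatives were other or no size factors, other filters, a replicate block, DESeq2 1.42.0, limma-voom (limma 3.58.1), an adjusted p under 0.1, other prior counts and member sets, and each library left out. Removing a length trend and list medians under these fits were added after seeing the data. On simulated data for knockout against control with 10551 genes, the test found 48 of 67 simulated 1.5-fold changes, 60 of 67 at 2-fold, and 65 of 66 at 3-fold. That run made 183 calls, 10 of them false, whereas edgeR called 11 genes in the deposited data. The adjustment depends on how many genes change, so these shares hold for that run only. The share found with as few calls as in the deposited data was not tested.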

Additional observations from a re-analysis of the deposited data

How the results depend on the processing

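11 genes of the whole table were called in knockout against control with edgeR. The number was 22 with DESeq2, and 4 to 19 when 1 library was left out. The log2 fold change of Malat1 was 0.53 (adjusted p = 0.0166) with DESeq2 and 0.40 to 0.66 without 1 library. It passed without knockout library 1. For Snhg12 the log2 fold change was 0.56 to 1.6 without 1 library. With the replicate number as a block, 35 genes were called, Malat1 among them at a log2 fold change of 0.52 (edgeR adjusted p = 0.0330), and so was Xist (edgeR adjusted p = 0.0142). The deviations of same-numbered libraries correlated at 0.139, 0.0195 and 0.148. Libraries 1 and 3 of each group were closest to their own number, and libraries 2 were not. The labels give only the number, so whether the libraries were paired is not established. Other size factors, other filters and limma-voom moved none of the 7 across the threshold and turned none of their signs. Of Snhg6 the sign turned only when single libraries were left out. Without size factors the median log2 fold change of all genes was 0.0194. The nuclear minus host difference was 0.08 to 0.32 without 1 library. Depth limits Snhg8 (22 to 45 counts) and Snhg12 (13 to 73 counts) most. With 3 libraries a group and no statement on separate animals, a missed threshold does not show that levels were equal.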
